A study of Sus scrofa with 6 samples.

Results

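KIT, the receptor tyrosine kinase for stem cell factor, was followed in longissimus dorsi, a long back muscle, in 3 libraries from Wannanhua pigs and 3 from Yorkshire pigs. The rule named 2 genes, KIT (ENSSSCG00000008842) and its ligand gene KITLG, by their rows in a table of 17627 genes. KIT was found by its Ensembl identifier. No identifier of the table was paired with the symbol KITLG, so the ligand has no value and is not analysed here, and 1 of the 2 genes is described. Both genes were proposed from a table of this same breed contrast, so the levels of KIT between the breeds are a description and carry no test.

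Wannanhua is a local Chinese breed and Yorkshire a lean, white-coated commercial breed. All 6 samples were labelled as 5 months of age, while the series' design text speaks of piglets. Nothing in the labels says that the libraries of a breed came from separate animals, so the spread between them may in part be technical. No treatment, transgene, coat colour or KIT genotype is given for any library.

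KIT spans the cell membrane. Stem cell factor, made by neighbouring cells such as fibroblasts, endothelium and keratinocytes, pairs receptor molecules, which phosphorylate each other and recruit phosphoinositide 3-kinase, GRB2 and SRC family kinases. Melanoblasts, mast cells, blood progenitors, germ cells and the pacemaker cells of the gut depend on this signal. In white European pigs the Dominant white allele carries a duplication of a segment that holds KIT, together with a splice mutation in a copy, and its carriers lack melanocytes in the skin. The table holds 1 row for KIT and cannot tell gene copies, alleles or splice forms apart. No sequence is shown, because none of KIT or KITLG was among the files used here.

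The summed values headed as counts ran from 16373268 to 19251335 per library. Muscle fibre markers were abundant in every library, as the tissue label requires: desmin (DES), the intermediate filament of muscle, had between 4376 and 5716 FPKM in the Wannanhua libraries and between 2181 and 2934 FPKM in the Yorkshire libraries. FPKM counts fragments per kilobase of transcript, scaled to the mapped fragments of the library. Yorkshire 1 stood apart from the other Yorkshire libraries, being the lowest of the 3 for 6003 of the 11791 genes tested (50.9%).

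KIT was low in both breeds and lower in Wannanhua. Its FPKM was 0.338, 0.597 and 0.335 in Wannanhua 1, 2 and 3. The Yorkshire libraries had 1.99, 3.504 and 5.44 FPKM in replicates 1, 2 and 3. All 3 Wannanhua libraries lay below all 3 Yorkshire libraries, and the lowest Yorkshire value was 3.33 times the highest Wannanhua value. The means were 0.423 ± 0.151 FPKM in Wannanhua and 3.64 ± 1.73 FPKM in Yorkshire (SD, n = 3 each), so the Yorkshire mean was 8.61 times the Wannanhua mean. As log2(FPKM + 1), a scale that shrinks differences between low values, Wannanhua minus Yorkshire was -1.64, beside a spread within breeds of 0.41 (pooled SD). With 0.1 in place of 1 as the pseudocount the difference was -2.76.

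Libraries of a breed also differed among themselves in KIT. The highest Wannanhua library, Wannanhua 2, was 1.78 times the lowest, and the highest Yorkshire library, Yorkshire 3, was 2.73 times the lowest, Yorkshire 1. Without Yorkshire 1 the log2 difference was -1.92, and without Yorkshire 3 it was -1.37. Since all Wannanhua libraries lay below all Yorkshire libraries, leaving out any 1 library could not turn the order of the breeds.

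**Figure D1:**
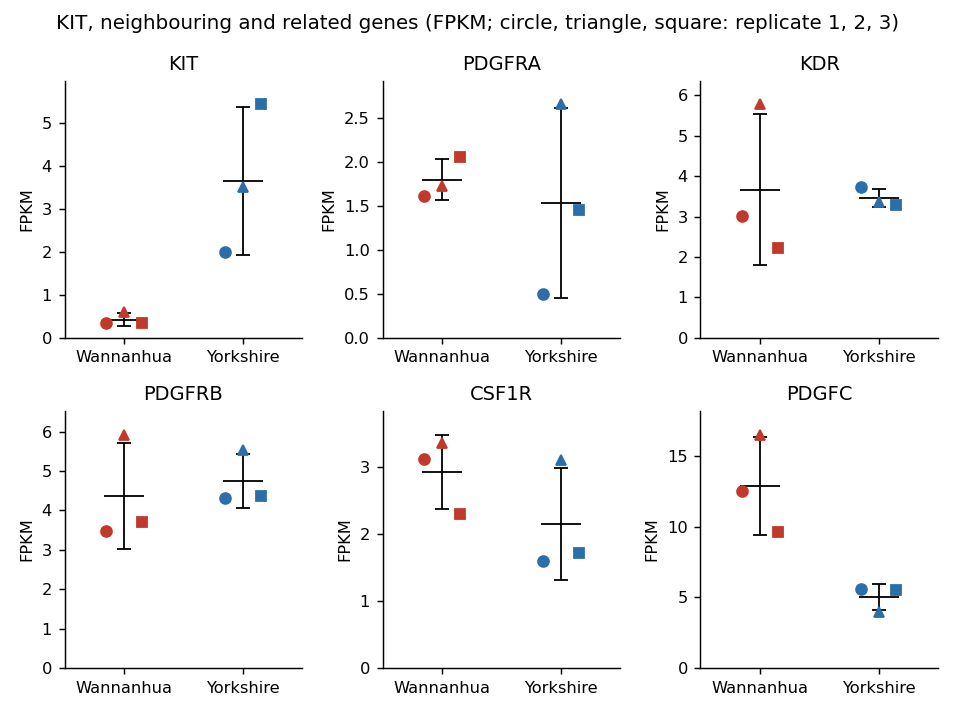
FPKM of KIT, of its neighbours PDGFRA and KDR, of the related receptors PDGFRB and CSF1R and of the ligand PDGFC in each library, with the mean and SD (n = 3) as black bars. KIT lies between 0.335 and 0.597 in Wannanhua and between 1.99 and 5.44 in Yorkshire, while the libraries of the breeds overlap for the other 4 receptors.

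Few reads stood behind the Wannanhua values. The deposited count values of KIT were 24.6, 46.0 and 25.8 in Wannanhua 1, 2 and 3, against 157, 269 and 416 in the 3 Yorkshire libraries in the same order of replicates. Nearly all count values of a library were whole multiples of a single step, and by that step KIT had 25, 46 and 24 reads in Wannanhua 1, 2 and 3. The corresponding Yorkshire libraries had 144, 280 and 455 reads. As RPM, reads per 1000000 reads of the library, KIT had 1.495, 2.81 and 1.34 in Wannanhua 1, 2 and 3. The Yorkshire libraries had 8.17, 15.5 and 21.6 RPM in replicates 1, 2 and 3. The exact Poisson 95% interval of the highest Wannanhua library ended at 3.74 RPM and that of the lowest Yorkshire library began at 6.89 RPM. These intervals cover counting error only, not the spread between libraries, and are no test of the breeds. They take reads as independent, which reads copied by PCR are not, and so can be too narrow.

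KIT also stood at different places in the order of genes within each library. In Wannanhua 1, 2 and 3 it lay above 17.3%, 21.4% and 17.1% of the genes with a value above 0. In Yorkshire 1, 2 and 3 it lay above 43.5%, 50.6% and 60.9% of them. The Wannanhua libraries thus had KIT in the lower part of the order and the Yorkshire libraries near its middle.

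A gene was tested if it reached 1 FPKM in at least 3 libraries, and KIT did so through the 3 Yorkshire libraries alone. It was 1 of 63 tested genes at or above 1 FPKM in all Yorkshire libraries and below it in all Wannanhua libraries. Of the 11791 genes tested, limma called 3.05% at an adjusted p of at most 0.05, 1.76% higher and 1.29% lower in Wannanhua. The libraries of the breeds did not overlap in 29.9% of them, with Wannanhua lower in 9.63% and higher in 20.3%. An unadjusted limma p under 0.05 was found in 2605 of the 11791. A log2 difference below that of KIT was found in 104 genes (0.882%). These shares are given as background; since KIT was picked from this contrast, nothing further is read from its place among them. In a bulk library, fewer KIT-bearing cells and less KIT RNA per cell cannot be told apart.

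**Figure D2:**
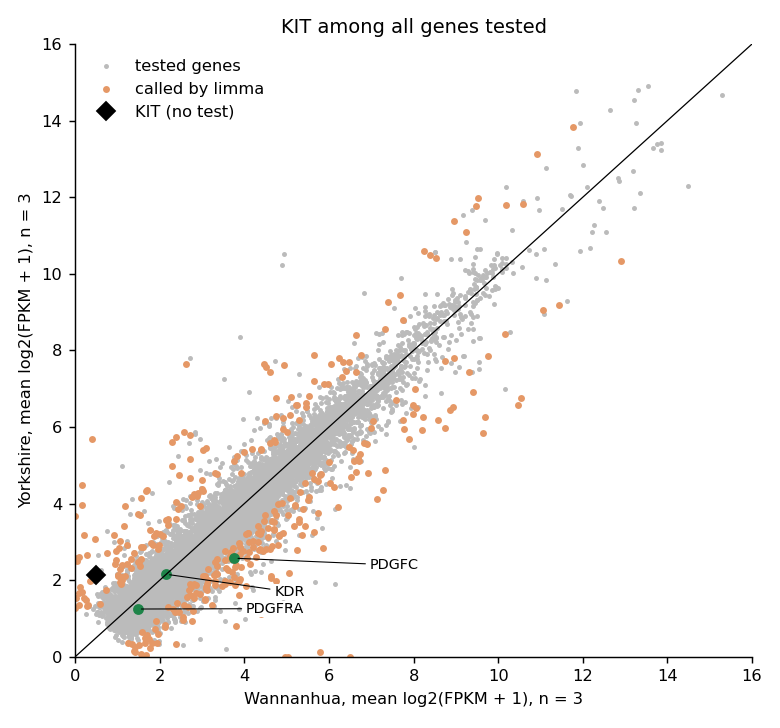
Mean log2(FPKM + 1) of each tested gene in Wannanhua (horizontal axis) and Yorkshire (vertical axis), n = 3 libraries each, with genes called by limma in orange and a diagonal of equal level. KIT, the black diamond, lies on the Yorkshire side among the genes with a low Wannanhua level; PDGFRA and KDR lie near the diagonal and PDGFC on the Wannanhua side.

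The genes beside KIT did not share its pattern by value. In the RefSeq order of build Sscrofa11.1, PDGFRA, the alpha receptor of platelet-derived growth factor, and KDR, a receptor of vascular endothelial growth factor, are the protein-coding genes on either side of KIT. PDGFRA stood at 1.61, 1.73 and 2.05 FPKM in Wannanhua 1, 2 and 3, against 0.497, 2.65 and 1.45 FPKM in Yorkshire 1, 2 and 3. The Wannanhua libraries lay within the Yorkshire range, and Yorkshire 1 was the low one (log2 difference 0.23 ± 0.32 SE, limma adjusted p = 0.702). KDR stood at 3.0, 5.78 and 2.22 FPKM in Wannanhua 1, 2 and 3, against 3.72, 3.37 and 3.28 FPKM in Yorkshire 1, 2 and 3. Again the breeds overlapped, with the widest spread in Wannanhua (log2 difference -0.01 ± 0.28 SE, limma adjusted p = 0.994). A p above the threshold does not show that these levels were equal.

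Set against its neighbours within each library, KIT had 0.210, 0.346 and 0.163 of the FPKM of PDGFRA in Wannanhua 1, 2 and 3, and 4.0, 1.32 and 3.76 times it in Yorkshire 1, 2 and 3. Relative to KDR, KIT had 0.112, 0.103 and 0.151 of its FPKM in Wannanhua 1, 2 and 3, and 0.535, 1.04 and 1.66 times it in Yorkshire 1, 2 and 3. The ratio to PDGFRA was below 1 in every Wannanhua library and above 1 in every Yorkshire library. These ratios contain KIT itself and are a description.

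Of 16 genes known to lie near KIT in mammals, 9 were matched by symbol and 7 were tested. None was called by limma, and 1 had an unadjusted p under 0.05. Their median log2 difference was 0.39, beside 0.12 over all genes tested, and 6 of the 7 were positive, the sign opposite to KIT. In PDGFRA and CLOCK the sign leaned on Yorkshire 1. CLOCK stood at 7.96, 6.71 and 12.1 FPKM in Wannanhua 1, 2 and 3, against 1.66, 8.58 and 10.5 FPKM in Yorkshire 1, 2 and 3. The list median was 0.25 to 0.54 when a library was left out. SCFD2, a protein of the family that regulates vesicle fusion, averaged 5.03 ± 0.30 FPKM in Wannanhua and 3.21 ± 0.80 FPKM in Yorkshire (SD, n = 3 each; limma adjusted p = 0.164). LNX1, a ubiquitin ligase, averaged 2.55 ± 0.16 FPKM in Wannanhua and 1.72 ± 0.27 FPKM in Yorkshire (SD, n = 3 each; limma adjusted p = 0.229). Both were above every Yorkshire library in every Wannanhua library, unlike KIT. In all, 3 of the 7 had this order, beside 20.3% of all genes tested, and 7 genes are too few to read more from it.

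KIT belongs to the class III receptor tyrosine kinases with a split kinase domain, together with PDGFRA, PDGFRB, CSF1R and FLT3. PDGFRB, the pericyte and fibroblast receptor, averaged 4.37 ± 1.35 FPKM in Wannanhua and 4.74 ± 0.69 FPKM in Yorkshire (SD, n = 3 each; limma adjusted p = 0.790). CSF1R, the receptor of macrophage growth factor, averaged 2.92 ± 0.56 FPKM in Wannanhua and 2.14 ± 0.84 FPKM in Yorkshire (SD, n = 3 each; limma adjusted p = 0.429). FLT3, a receptor of early blood cells, did not reach the filter and was at most 0.188 FPKM in Wannanhua and 0.101 FPKM in Yorkshire. In FPKM, KIT was the lowest of KIT, PDGFRA, PDGFRB and CSF1R in each Wannanhua library. It was above PDGFRA and CSF1R in all 3 Yorkshire libraries, and above PDGFRB in Yorkshire 3.

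The ligands of the sister receptors gave the call of this list. PDGFC, a ligand of PDGFRA, stood at 12.5, 16.5 and 9.64 FPKM in Wannanhua 1, 2 and 3, against 5.596, 3.93 and 5.50 FPKM in Yorkshire 1, 2 and 3. It rose in Wannanhua, with a log2 difference of 1.19 ± 0.24 (SE; limma adjusted p = 0.0465), higher in 3 of 3 libraries. The call was lost with quantile normalization (adjusted p = 0.0735), with a pseudocount of 0.1 (0.0504), without the filter (0.0735), with the replicate number as a block (0.0759) and without any 1 library but Wannanhua 3 (0.0663 to 0.150). PDGFA, another ligand of PDGFRA, stood at 1.74, 1.78 and 3.28 FPKM in Wannanhua 1, 2 and 3, against 7.30, 6.17 and 3.43 FPKM in Yorkshire 1, 2 and 3. The Wannanhua libraries were all lower, Wannanhua 3 by a narrow margin, and the gene was not called (log2 difference -1.01 ± 0.30 SE, limma adjusted p = 0.109). PDGFD, a ligand of PDGFRB, averaged 2.24 ± 0.99 FPKM in Wannanhua and 2.00 ± 1.56 FPKM in Yorkshire (SD, n = 3 each; limma adjusted p = 0.815).

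The genes that carry the KIT signal inside the cell gave no call. Of 33 such genes 29 were matched and 24 tested, and limma called 0 of them. An unadjusted p under 0.05 was found in 4 of the 24, beside 2605 of the 11791 genes tested. Their median log2 difference was 0.13, beside 0.12 over all genes, with 13 positive and 11 negative. GRB2, the adaptor that links receptors to RAS, stood at 27.6, 28.4 and 28.6 FPKM in Wannanhua 1, 2 and 3, against 30.5, 28.9 and 28.1 FPKM in Yorkshire 1, 2 and 3, and was chosen for mention after its values were seen. PIK3CA, the catalytic subunit of phosphoinositide 3-kinase, averaged 21.7 ± 4.11 FPKM in Wannanhua and 10.8 ± 3.37 FPKM in Yorkshire (SD, n = 3 each; limma adjusted p = 0.0915). Every Wannanhua library was above every Yorkshire library in PIK3CA, the opposite order to KIT. The signalling kinases LYN, SRC, BTK and PIK3CD and the phospholipase PLCG2 did not reach the filter.

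Genes that damp or shape the signal gave no call either. Of 16 brakes 13 were matched and 10 tested, and limma called none. An unadjusted p under 0.05 was found in 4 of the 10, beside 2605 of the 11791 genes tested. The median log2 difference was 0.23. PTPN11, the phosphatase SHP2, which binds KIT and acts in both directions, averaged 45.0 ± 1.18 FPKM in Wannanhua and 26.6 ± 3.12 FPKM in Yorkshire (SD, n = 3 each; limma adjusted p = 0.0587, and 0.0460 with a filter at 5 FPKM). SPRY1, a Sprouty inhibitor of the RAS pathway, averaged 11 ± 2.5 FPKM in Wannanhua and 6.06 ± 1.45 FPKM in Yorkshire (SD, n = 3 each; limma adjusted p = 0.129). Of 9 genes of receptor and ligand shedding 8 were matched and 6 tested, with none called by limma, none at an unadjusted p under 0.05 and a median of 0.09. ADAM19 averaged 2.83 ± 0.78 FPKM in Wannanhua and 4.20 ± 1.55 FPKM in Yorkshire, and ADAM10 averaged 8.94 ± 1.01 FPKM in Wannanhua and 7.33 ± 0.58 FPKM in Yorkshire (SD, n = 3 each; limma adjusted p = 0.385 and 0.415); both are membrane-bound metalloproteases.

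Transcription factors known to drive KIT or its ligand were likewise not called. Of 13, 10 were matched and 5 tested, with none called by limma, none at an unadjusted p under 0.05 and a median log2 difference of 0.37. All 5 were positive, the sign opposite to KIT and also that of the median of all genes tested (0.12). In SP1 this rested on Yorkshire 1. SP1 stood at 7.74, 8.76 and 8.67 FPKM in Wannanhua 1, 2 and 3, against 2.52, 9.52 and 9.25 FPKM in Yorkshire 1, 2 and 3. The list median was 0.27 to 0.52 when a library was left out. MITF, the master factor of melanocytes and a driver of KIT in mast cells, stood at 3.50, 5.61 and 5.01 FPKM in Wannanhua 1, 2 and 3, against 1.33, 3.79 and 3.39 FPKM in Yorkshire 1, 2 and 3 (limma adjusted p = 0.283). The breeds overlapped, and Yorkshire 1 was the lowest library. LMO2, a blood and endothelial cofactor, averaged 5.64 ± 2.19 FPKM in Wannanhua and 3.66 ± 0.38 FPKM in Yorkshire (SD, n = 3 each; limma adjusted p = 0.348). Over all 7 lists of the KIT pathway, its relatives and its neighbourhood, 1 of 61 tested genes was called, PDGFC. Of all genes tested, 3.05% were called. The lowest log2 difference of the 61 was -1.01, against -1.64 for KIT, which was picked from this contrast. Wannanhua lay wholly below Yorkshire in 5 of the 61, C12orf50 described next among them, beside 9.63% of all genes tested. It lay wholly above Yorkshire in 13, beside 20.3%. The 5 and the 13 are near these shares over all genes.

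Near KITLG, 6 of 11 listed neighbours were matched and 4 tested, with none called by limma. C12orf50 stood at 0.295, 0.187 and 0.566 FPKM in Wannanhua 1, 2 and 3, against 1.77, 1.28 and 1.15 FPKM in Yorkshire 1, 2 and 3. All Wannanhua libraries were lower, but like KIT it passed the filter through the Yorkshire libraries alone, so it had to differ and no test of it is given. TMTC3, the protein-coding gene next to KITLG in the RefSeq order, averaged 4.0 ± 0.57 FPKM in Wannanhua and 2.28 ± 1.43 FPKM in Yorkshire (SD, n = 3 each; limma adjusted p = 0.283). These values say nothing of the level of KITLG.

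**Figure D3:**
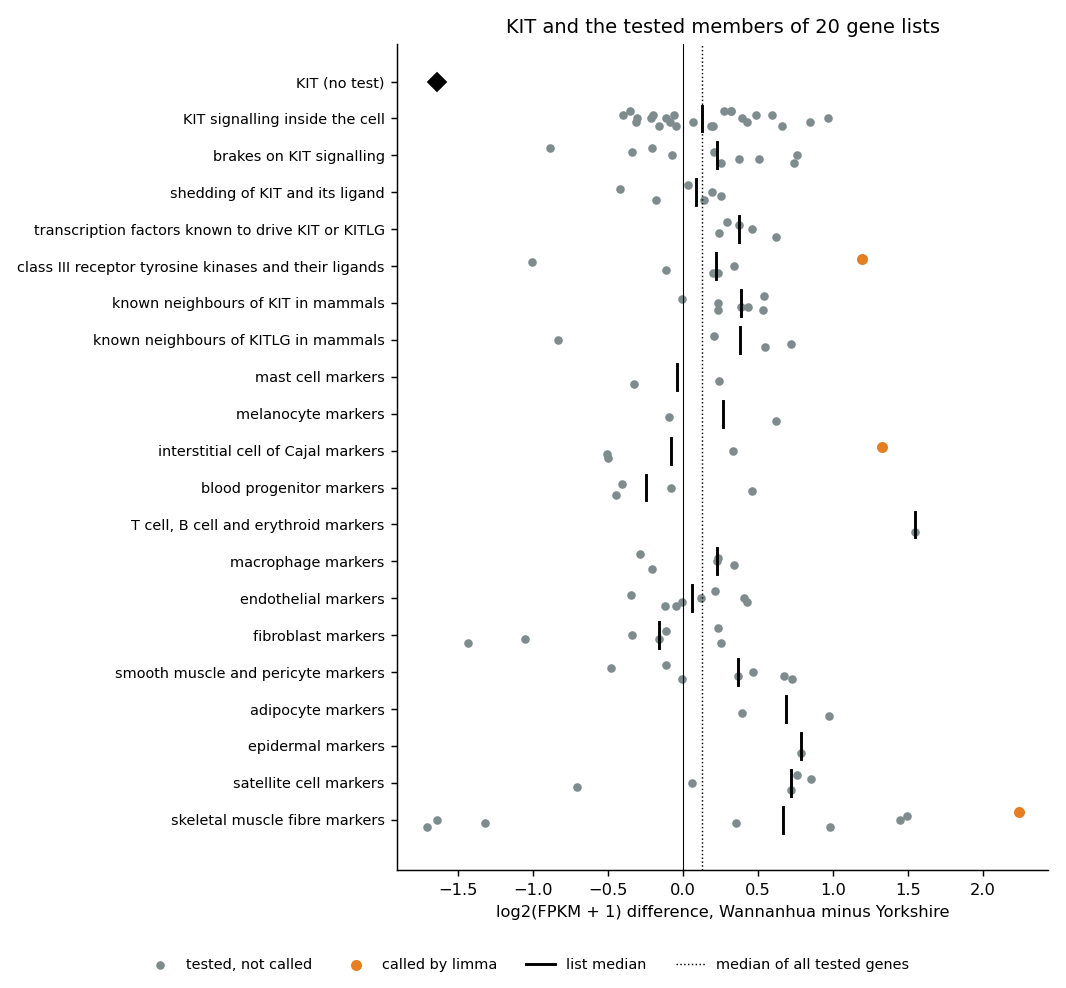
Difference in log2(FPKM + 1), Wannanhua minus Yorkshire, of KIT (diamond) and of every tested member of 20 gene lists, with called genes in orange, the median of each list as a black bar and the median of all genes, 0.12, as a dotted line. KIT, at -1.64, lies below every tested member of the 7 lists of its pathway, relatives and neighbours. Among the marker lists, MYBPC2, at -1.71, lies beyond KIT. KIT was picked from this contrast, so its place is a description.

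Cells that bear KIT were looked for by other markers. Mast cells, the KIT-bearing cells of connective tissue, had 7 of 18 markers matched and 2 tested, neither called by limma. Neither had an unadjusted p under 0.05, and the median log2 difference of the 2 was -0.04. The tryptases, CPA3 and CMA1 were not matched and are not analysed here. The summed level of the 7 ran from 6.30 to 12.2 FPKM in Wannanhua and from 6.34 to 8.85 FPKM in Yorkshire, and FCER1G, which macrophages also express, was the largest part, at 4.39 ± 1.14 FPKM in Wannanhua and 5.78 ± 1.43 FPKM in Yorkshire (SD, n = 3 each; limma adjusted p = 0.445). HDC, which makes histamine, was listed at 0 in all Yorkshire libraries and in Wannanhua 3. HPGDS was at most 0.120 FPKM in any library, and ENPP3 and LTC4S were below 0.3 FPKM in every library.

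FCER1A, the alpha chain of the high-affinity IgE receptor of mast cells and basophils, went against KIT by value. It stood at 2.01, 2.94 and 0.907 FPKM in Wannanhua 1, 2 and 3, against 0.214, 0.139 and 0.338 FPKM in Yorkshire 1, 2 and 3. All Wannanhua libraries were higher, the reverse of KIT. FCER1A reached 1 FPKM in fewer than 3 libraries and has no test, and it is named after its values were seen.

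Of 12 melanocyte markers, 5 were matched and 2 tested, MITF and EDNRB, neither called by limma and neither at an unadjusted p under 0.05. DCT, an enzyme of pigment synthesis, was at most 0.0583 FPKM in Wannanhua and 0.0430 FPKM in Yorkshire. TYRP1, another such enzyme, was listed at 0 in all libraries but Wannanhua 3, where it stood at 0.0692 FPKM. SLC45A2, a transporter of pigment cells, stood at 1.16, 0.354 and 0.474 FPKM in Wannanhua 1, 2 and 3, against 0.188, 0.260 and 0.159 FPKM in Yorkshire 1, 2 and 3. All Wannanhua libraries were higher, the reverse of KIT, at levels too low for a test. EDNRB, an endothelin receptor also found outside melanocytes, averaged 2.00 ± 1.41 FPKM in Wannanhua and 1.95 ± 0.52 FPKM in Yorkshire (SD, n = 3 each; limma adjusted p = 0.909). The summed level of the 5 ran from 5.20 to 9.29 FPKM in Wannanhua and from 3.0 to 6.06 FPKM in Yorkshire. MITF and EDNRB made up most of it, and the median log2 difference of these 2 was 0.27.

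Markers of interstitial cells of Cajal, the KIT-bearing pacemaker cells of the gut wall, were all 5 matched and 4 tested. PRKCQ, a protein kinase C that muscle fibres also express, rose in Wannanhua, to 19.4 ± 4.35 FPKM, against 7.08 ± 1.15 FPKM in Yorkshire (SD, n = 3 each; limma adjusted p = 0.0342). It was the call of this list, higher in 3 of 3 libraries, and was lost without the filter and without any 1 library but Wannanhua 3 (adjusted p = 0.0549 to 0.126). THBS4, a matrix protein, was highest in mean, at 19.9 ± 4.35 FPKM in Wannanhua and 19.8 ± 18.4 FPKM in Yorkshire (SD, n = 3 each; limma adjusted p = 0.752). The summed level of the list was 42.4 to 53.5 FPKM in Wannanhua and 29.6 to 66.1 FPKM in Yorkshire. Its median log2 difference was -0.08 over the 4 tested, 2 positive and 2 negative, and 0.333 without Yorkshire 2.

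Of 80 marker genes matched over 13 lists, 12 were below every Yorkshire library in every Wannanhua library, as KIT was, and 9 were above. Of all genes tested, 20.3% were above, but not all of the 80 were tested. Of the 12, 10 were among the 56 tested (17.9%, beside 9.63% of all genes tested), of which PROM1 passed the filter through the Yorkshire libraries alone, and none was called. Those of muscle fibres, fibroblasts and satellite cells were TNNC2, MYBPC2, PYGM, COL1A2 and CDH15, and the T cell markers CD3D and CD2 were too low for a test. The others are given here, after their values were seen. ANO1, a chloride channel of interstitial cells of Cajal, stood at 3.92, 3.93 and 4.71 FPKM in Wannanhua 1, 2 and 3, against 6.96, 6.16 and 5.86 FPKM in Yorkshire 1, 2 and 3 (limma adjusted p = 0.138). GJA1, a gap junction protein of many cell types, stood at 4.44, 7.01 and 5.43 FPKM in Wannanhua 1, 2 and 3, against 7.67, 10.5 and 7.05 FPKM in Yorkshire 1, 2 and 3 (limma adjusted p = 0.235). PTPRC, the leukocyte antigen CD45, stood at 1.13, 1.415 and 1.118 FPKM in Wannanhua 1, 2 and 3, against 1.54, 2.84 and 1.82 FPKM in Yorkshire 1, 2 and 3 (limma adjusted p = 0.253). PROM1, a membrane protein of progenitor cells, stood at 0.943, 0.952 and 0.426 FPKM in Wannanhua 1, 2 and 3, against 1.24, 1.16 and 1.61 FPKM in Yorkshire 1, 2 and 3. CD68, a lysosomal protein of macrophages, stood at 1.61, 1.42 and 1.602 FPKM in Wannanhua 1, 2 and 3, against 1.80, 1.84 and 2.17 FPKM in Yorkshire 1, 2 and 3 (limma adjusted p = 0.486). The ratio of breed means, Yorkshire over Wannanhua, ran from 1.25 (CD68) to 3.11 (COL1A2) over the 12, against 8.61 for KIT. As log2(FPKM + 1), which shrinks differences between low values, MYBPC2 (-1.71) lay beyond KIT (-1.64) and PYGM (-1.64) lay level with KIT. KIT was picked from this contrast, so these comparisons are a description. In Yorkshire 3, the library highest in KIT, PROM1 and CD68 were also the highest of their breed and the other 10 were not. Their part in the level of KIT was not tested, and the order of 3 libraries cannot decide it.

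**Figure D4:**
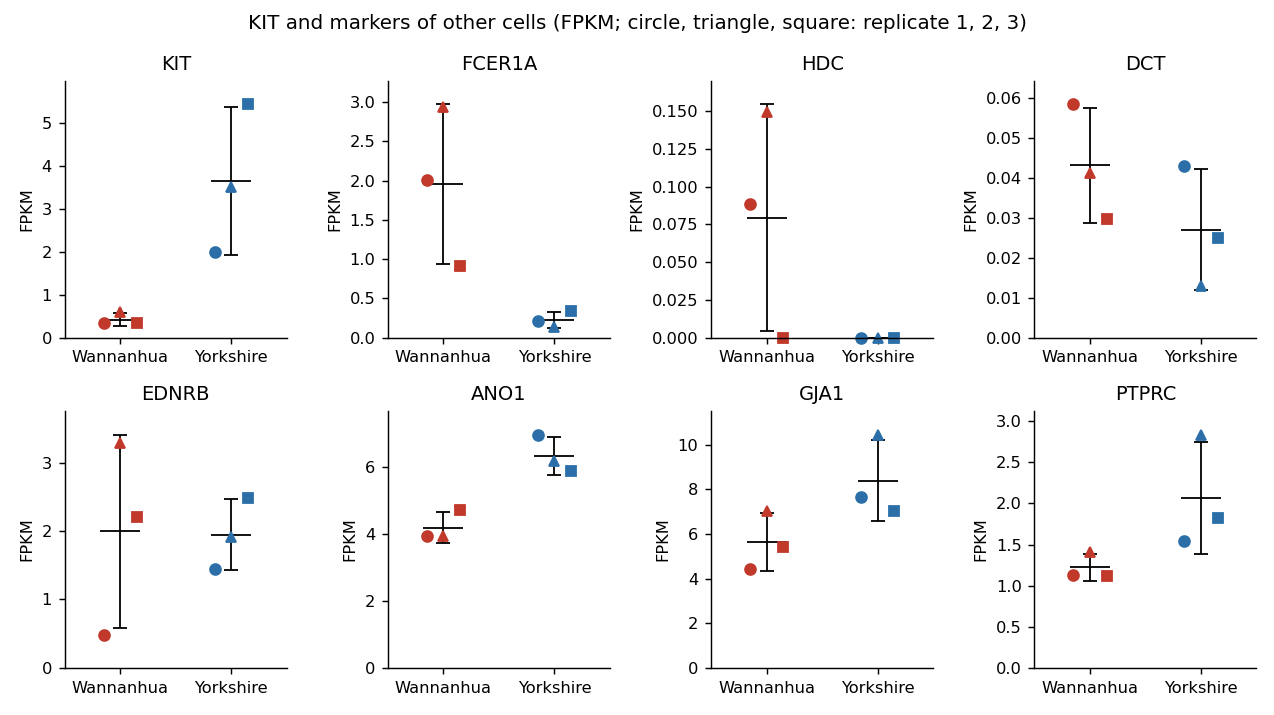
FPKM of KIT and of markers of mast cells (FCER1A, HDC), melanocytes (DCT, EDNRB), interstitial cells of Cajal (ANO1, GJA1) and leukocytes (PTPRC) in each library, with the mean and SD (n = 3) as black bars; each panel has its own axis. FCER1A is higher in Wannanhua, HDC and DCT lie near 0, and ANO1, GJA1 and PTPRC are lower in Wannanhua without being called.

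Beside these, the blood progenitor list, which holds PTPRC, had 7 of 11 genes matched and 4 tested, none called by limma. Its summed level was 6.74 to 13.8 FPKM in Wannanhua and 8.88 to 11.2 FPKM in Yorkshire. The median log2 difference of the 4 was -0.25, of the sign of KIT, with 3 negative and 1 positive. That median stayed negative when any 1 library was left out (-0.392 to -0.095). PROM1, among the 4, passed the filter through the Yorkshire libraries alone. Endothelial markers had a median log2 difference of 0.06 over 8 tested, with PECAM1 at 31.8 ± 5.06 FPKM in Wannanhua and 34.4 ± 3.20 FPKM in Yorkshire (SD, n = 3 each; limma adjusted p = 0.743). Fibroblast markers had a median of -0.16 over 7 and a summed level of 294 to 377 FPKM in Wannanhua and 320 to 793 FPKM in Yorkshire; decorin (DCN), a matrix proteoglycan, averaged 179 ± 29.5 FPKM in Wannanhua and 229.8 ± 60.3 FPKM in Yorkshire (SD, n = 3 each; limma adjusted p = 0.442). The collagen chain genes COL1A2 and COL3A1 were further apart and are named after their values were seen. COL1A2 stood at 29.5, 20.3 and 20.3 FPKM in Wannanhua 1, 2 and 3, against 32.3, 118.7 and 67.4 FPKM in Yorkshire 1, 2 and 3, lower in all Wannanhua libraries (limma adjusted p = 0.119, and 0.0404 without Yorkshire 1). COL3A1 averaged 89.5 ± 12.1 FPKM in Wannanhua and 211 ± 116.1 FPKM in Yorkshire, with Yorkshire 1 inside the Wannanhua range (SD, n = 3 each; limma adjusted p = 0.214, and 0.0345 without Yorkshire 1). The median of the fibroblast list was 0.13 without Yorkshire 2. The fibroblast sum was highest in Yorkshire 2 and KIT was highest in Yorkshire 3. The part of these markers in the level of KIT was not tested, and the order of 3 libraries cannot decide it.

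Macrophage, smooth muscle, satellite cell, adipocyte and epidermal lists had medians from 0.23 to 0.79, of the sign opposite to KIT, over 1 to 7 tested genes each. The smooth muscle median was -0.02 without Yorkshire 2 and the macrophage median -0.29 with a filter at 5 FPKM. Their most abundant tested members were the complement gene C1QA (8.01 ± 1.37 FPKM in Wannanhua, 10.6 ± 4.53 FPKM in Yorkshire), the smooth muscle protein TAGLN (68.6 ± 34.8 FPKM in Wannanhua, 44.6 ± 10.6 FPKM in Yorkshire; SD, n = 3 each) and, for satellite cells, CDH15. CDH15, a cadherin of muscle precursors, stood at 5.97, 5.85 and 8.65 FPKM in Wannanhua 1, 2 and 3, against 11.3, 14.8 and 9.20 FPKM in Yorkshire 1, 2 and 3 (limma adjusted p = 0.138), in the order of KIT, while SPRY1, given above and in the same list, went the other way. For fat and epidermis they were the lipid droplet protein PLIN1 (6.9 ± 0.98 FPKM in Wannanhua, 3.95 ± 3.07 FPKM in Yorkshire) and TP63 (6.4 ± 3.34 FPKM in Wannanhua, 3.08 ± 1.25 FPKM in Yorkshire; SD, n = 3 each). The single tested gene of the lymphoid and erythroid list, HBB, a haemoglobin chain, had a log2 difference of 1.55. Limma called 0 genes of the 9 lists from blood progenitors to HBB, in which 5 had an unadjusted p under 0.05. Of all 11791 genes tested, 3.05% were called and 2605 had an unadjusted p under 0.05. With 1 to 8 tested genes per list, the 0 calls are not read as a result about these cells. Muscle fibre markers had a median of 0.66 over 8, of which MYBPC1, a myosin-binding protein, was called, higher in Wannanhua (log2 difference 2.24 ± 0.34 SE, limma adjusted p = 0.0295). That call was lost without the filter (adjusted p = 0.0544) and without Wannanhua 1, Wannanhua 2, Yorkshire 2 or Yorkshire 3 (0.0777 to 0.126). TNNC2, a troponin of fast fibres and the most abundant marker, averaged 10845 ± 6843 FPKM in Wannanhua and 23914 ± 2352 FPKM in Yorkshire (SD, n = 3 each; limma adjusted p = 0.138).

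Genes with the pattern most like KIT were found by Pearson's r of log2(FPKM + 1) over the 6 libraries, among 11790 other tested genes. The 5 highest with a symbol were GPRC5B (r = 0.998), PGM3 (0.987), HOMER1 (0.986), TMCO6 (0.984) and FRRS1 (0.982). All 6 libraries share the breed split, and 209 genes had an r of at least 0.9 and 356 an r of at most -0.9. A high r is thus not particular to the genes named, and no p is given. GPRC5B, an orphan receptor, stood at 9.09, 10.23 and 8.42 FPKM in Wannanhua 1, 2 and 3, against 17.8, 28.3 and 36.1 FPKM in Yorkshire 1, 2 and 3. Like KIT it was lowest in Yorkshire 1 and highest in Yorkshire 3 within Yorkshire, and highest in Wannanhua 2 within Wannanhua. This likeness follows from its choice by r and is a description.

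HOMER1, a scaffold protein of synapses and muscle, averaged 36.1 ± 2.38 FPKM in Wannanhua and 97.6 ± 33.7 FPKM in Yorkshire. FRRS1, a ferric-chelate reductase, averaged 1.95 ± 0.65 FPKM in Wannanhua and 13.2 ± 6.76 FPKM in Yorkshire. PGM3, an enzyme of amino sugar synthesis, averaged 4.94 ± 0.39 FPKM in Wannanhua and 7.59 ± 0.69 FPKM in Yorkshire (SD, n = 3 each for these genes). The 3 genes most unlike KIT were SGTA (r = -0.999), a co-chaperone, KDM8 (-0.997) and RPS6KA5 (-0.997), a kinase downstream of MAP kinases. SGTA averaged 41.6 ± 0.55 FPKM in Wannanhua and 31.4 ± 3.16 FPKM in Yorkshire (SD, n = 3 each).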

How the data were processed

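Libraries were poly-A selected, paired-end and unstranded, per the labels' protocols. Per the submitters' processing notes, the build was Sscrofa10.2 and the tools TopHat2 2.0.6 and CASAVA 1.7; counter and annotation: not given in the sources used here. For each gene and library the authors deposited FPKM and a second, count-headed column. Those deposited count values are not whole and are used as a scaled signal. Per library, 99.7% to 99.82% of the nonzero ones were whole multiples of a step of 0.914 to 1.09, within 0.01 of a read (relative 1e-05 for large values), which gave 16385601 to 21056699 reads. A step search from the smallest value did not find this step in 4 libraries, so no count model was run and the reads serve description only.

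A name table with no stated Ensembl release gave symbols to 10384 of 17627 genes (58.9%). The fit was limma 3.58.1 in R 4.3.3 on log2(FPKM + 1), with breed as its only term, trend and robust settings and Benjamini-Hochberg adjustment over 11791 genes at 1 FPKM or more in at least 3 libraries; it was tested on simulated data. Left out were 7 genes that reached a count value of 10000 in a library and were listed at 0 in another. Named were, of each pathway list, the called members or the 2 with the smallest p; all class III receptors and ligands; the neighbours; of marker lists the called and the most abundant members; and the 5 genes most and 3 least like KIT. The genes, lists and tests were chosen with earlier results of these data known. Alternatives were other limma settings, filters, pseudocount and scaling, a block for the replicate number, and leaving out each library. A few results are not reported here.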

Additional observations from a re-analysis of the deposited data

How the results depend on the processing

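KIT was lower in Wannanhua under every setting run. Its log2 difference was -2.76 with a pseudocount of 0.1, and ran from -1.92 to -1.37 when a library was left out. Since the libraries of the breeds did not overlap in KIT, neither change could turn its sign. The 360 genes called became 69 without a filter and 205 with the replicate number as a block, and 27 to 524 when a library was left out. Higher genes were 57.8% of the calls, 40.8% after quantile normalization, which moved the median of all genes from 0.12 to 0.00, and 44.9% without a filter. The deviations of same-numbered libraries from their breed means correlated at 0.101, -0.012 and 0.107, so the numbers were not taken as pairs. The block left the log2 difference of KIT at -1.64, as it must when each number occurs once in each breed. The 1 call among class III receptors and ligands became 0 with quantile normalization, without a filter, with a pseudocount of 0.1, with the replicate block and in 5 of 6 fits without a library (range 0 to 1). The 1 call of the Cajal list became 0 without a filter and ranged from 0 to 1 without a library. The brakes on KIT signalling had 1 call (PTPN11) with a filter at 5 FPKM, and fibroblast markers 0 to 2 without a library. Muscle fibre markers had 2 calls without trend and robust settings and after quantile normalization, 0 without a filter, and 0 to 5 without a library. Genes whose sign turned when a library was left out were not called: PDGFRA (-0.10 to 0.54), PDGFD (-0.21 to 0.59), KDR (-0.31 to 0.23), EDNRB (-0.42 to 0.35) and THBS4 (-0.024 to 1.02). List medians turned sign without Yorkshire 1 (signalling -0.025, brakes -0.008, shedding -0.199, class III -0.134), without Yorkshire 2 (Cajal 0.333, fibroblast 0.134, smooth muscle -0.021), without Wannanhua 2 (signalling -0.066, endothelial -0.145), with quantile normalization (shedding -0.066, endothelial -0.073), without a filter (brakes -0.057, Cajal 0.038) and with a filter at 5 FPKM (macrophage -0.288). The cause of these shifts was not tested. KITLG gave no value under any setting. The planned count tests on recovered reads were not run. The exact Poisson intervals of KIT in Wannanhua 1 and 2 were 0.967 to 2.21 and 2.06 to 3.74 RPM and cover counting error only.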
